A study of Mus musculus with 3 samples.

Results

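Mature CD8 T cells of the mouse lung were taken from 3 single-cell RNA libraries by a rule on transcripts, with no clustering. A kept cell was a member if it held at least 1 unique molecular identifier (UMI, the count of 1 captured RNA molecule) of Cd3e, Cd3d or Cd3g and at least 1 of Cd8a or Cd8b1. It could hold 0 UMIs of Cd4, of 8 genes that mark immature T cells (Rag1, Rag2, Dntt, Ptcra, Arpp21, Endou, Itm2a and Ikzf2) and of Cd79a, Ncr1 and Csf1r, which mark B cells, NK cells and macrophages. This gave 373 members among 6458 kept cells. They were 88 of 1728 cells in the control, 159 of 2434 after conventional irradiation and 126 of 2296 after FLASH irradiation. The rule used measured values, so the absence of Cd4, of immature genes and of B cell genes, and the presence of CD3 and Cd8 genes, are properties of the choice and no result.

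The study compared non-irradiated lung with lung whose thorax was irradiated either conventionally (CONV) or in FLASH mode, where electrons are delivered at an ultra-high dose rate. All mice were C57BL/6 females of 10 to 12 weeks, and both irradiated groups received 17 Gy of 4.5 MeV electrons to the thorax under isoflurane. Whole lungs were dissociated with enzymes with no sort for T cells, and each group was 1 library made with the 10x Genomics Chromium 3' kit. How many mice went into a library, and how long after irradiation lungs were taken, is not given in the sources used here. With 1 library per group no difference had a replicate check, so no test was made. Intervals are 95% and cover counting error only.

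CD8 T cells recognise peptides on MHC class I molecules through the T cell receptor, and Cd8a and Cd8b1 encode the coreceptor that binds class I. Naive CD8 T cells circulate between blood and lymph nodes and express Ccr7, Il7r, Lef1 and Tcf7. Memory and effector cells express Ccl5, granzymes and Nkg7, and part of them resides in tissues such as the lung. Lymphocytes are among the cell types most readily killed by ionising radiation, and BCL2 family proteins set the threshold for their death.

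The control library held 7114360 UMIs, the CONV library 7463259 and the FLASH library 5498902. The members of the control were the deepest, with a median of 2988 UMIs per cell against 1873 in CONV and 1594 in FLASH. Barcode sequences shared between libraries numbered 7 for control and CONV, 7 for control and FLASH, and 5 for CONV and FLASH, and 2 members carried a barcode shared by control and FLASH. Cells with a CD3 UMI and at least 1 UMI of the 8 immature genes, and none of Cd79a, Ncr1 or Csf1r, are called immature T cells here and numbered 561 in the control against 74 after CONV and 44 after FLASH. The edge of the rule was crowded in the control: of 530 control cells with CD3 and Cd8 UMIs, 34 were kept out by exactly 1 UMI of an immature gene and 225 by 2 or more, against 13 and 7 of 189 cells in CONV and 5 and 1 of 143 cells in FLASH. The Cd4 condition alone kept out 4 control cells and 1 CONV cell by a single UMI, and no FLASH cell.

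The label was checked against genes outside the rule, and part of the control members went against it. In the control, 16 of 88 members held at least 3 UMIs of a panel of 21 genes of other lineages or at least 10 UMIs of the class II genes Cd74, H2-Aa, H2-Ab1 and H2-Eb1. These 16 cells held 42.1% of the UMIs of all control members. Their median was 6904 UMIs and 8 of them had exactly 1 CD3 and 1 Cd8 UMI. In CONV 5 members (4.37% of the UMIs) and in FLASH 2 members (7.90% of the UMIs) met the same limits. The carried transcripts were those of club cells (Scgb1a1), alveolar type II cells (Sftpc), antigen-presenting cells (Cd74) and fibroblasts (Dcn). Scgb1a1, the main secretory protein of club cells, made up 10.7% of the UMIs of all control members, with 36091 of its 37269 UMIs in those 16 cells. All 156 UMIs of Avp lay in 1 control member, as did all 100 of Ubd in 1 member, and Ccl25, a chemokine made by thymic and gut epithelium, reached 66 UMIs in 1 control member. Epithelial cells were taken as cells with at least 5 UMIs summed over Epcam, Krt8 and Krt18. Of the epithelial cells, 17 of 113 in the control held both CD3 and Cd8 UMIs, against 2 of 156 in CONV and 1 of 138 in FLASH. These overlap with the members, since 7 control, 0 CONV and 1 FLASH epithelial cells were themselves members. B cells were taken as cells with Cd79a and no UMI of the CD3 genes, Ncr1 or Csf1r. A Cd8 UMI was found in 14.2% of control B cells (interval 9.83 to 19.5%), 2.61% of CONV B cells and 0.546% of FLASH B cells, whose median depths were 1985, 2059 and 1450 UMIs.

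**Figure D1:**
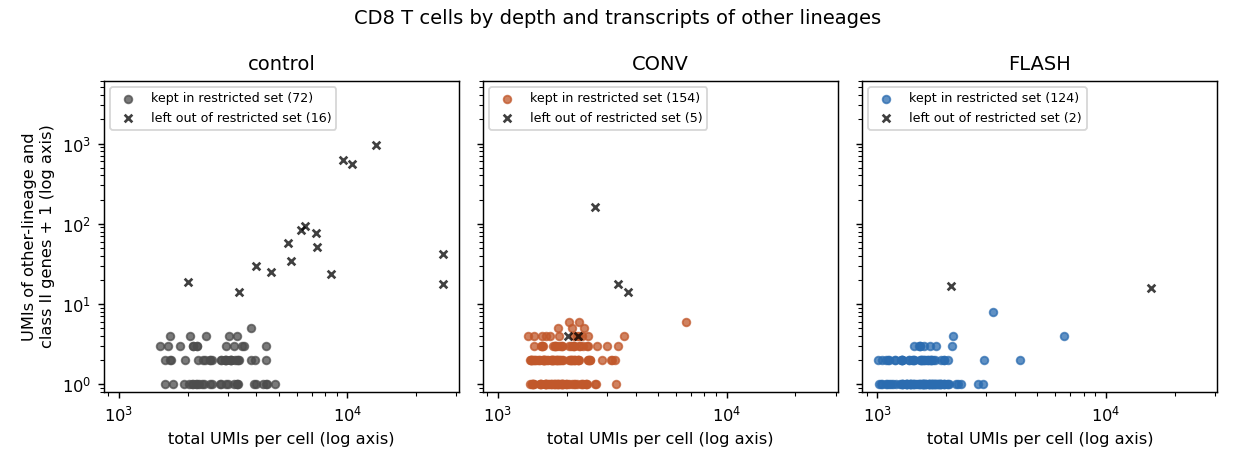
Each point is 1 member, with its total UMIs on the horizontal log axis and its UMIs of other-lineage and class II genes plus 1 on the vertical log axis, by library. Crosses are the 16 control, 5 CONV and 2 FLASH members that carried transcripts of other lineages, and most of the control crosses lie at the deep end of their library.

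Values are therefore given for all members and for the members without those cells, called restricted members below. They were 72 control cells with a median of 2796 UMIs, 154 CONV cells with 1848 and 124 FLASH cells with 1592. Of these, 0 control, 12 CONV and 10 FLASH cells rested on exactly 1 CD3 and 1 Cd8 UMI, against 8, 12 and 10 of all members. In the restricted members Scgb1a1 stood at 0.583%, 0.756% and 0.746% of UMIs. Of 10 listed markers of B cells outside the rule, 7 were present in the data. They summed to 188, 199.6 and 154 CPM (UMIs per 1000000 UMIs of the members of a library) in the control, CONV and FLASH. Cd74 gave 24, 47 and 27 of their 38, 61 and 32 UMIs, and the choice of restricted members itself limited Cd74. Pax5 was at 0 in all 3 libraries and Ms4a1 at 0 in the control and FLASH. Markers of NK cells summed to 44.5, 141 and 361 CPM, and 6, 5 and 4 of their 10 genes were at 0. Among genes of gamma-delta and NKT cells, only 5 of 10 were present in the data, and they summed to 2, 6 and 1 UMIs. Trdc, a gene of the gamma-delta receptor, was not among them. The sum therefore cannot show whether gamma-delta cells were present. Myeloid markers were 673, 1227 and 1622 CPM, stromal markers 208, 916 and 597, and epithelial markers 7400, 11770 and 10340. These were higher in the irradiated libraries in restricted members. In all members, before cells with other-lineage transcripts were left out, the control was highest in each. Myeloid markers were then 5241, 1593 and 1640 CPM, stromal markers 1797, 1433 and 603, and epithelial markers 129200, 11760 and 57570. The part of these transcripts in the gene ratios was not tested. Thymocyte markers outside the rule stood at 876, 560 and 472 CPM, and 16 of 72 control, 14 of 154 CONV and 7 of 124 FLASH cells held a UMI of Ccr9 or Cd24a. Of the restricted members, 28, 83 and 64 held Cd8b1 with no Cd8a UMI, and 3, 6 and 15 held Cd8a alone.

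CD8 T cells made up 5.09% of kept cells in the control (4.10 to 6.24%), 6.53% in CONV (5.58 to 7.59%) and 5.49% in FLASH (4.59 to 6.50%), and the 3 intervals overlapped. Restricted members were 4.17%, 6.33% and 5.40%. The restricted share was 2.16 percentage points higher in CONV than in the control (Newcombe interval 0.779 to 3.499) and 1.23 points higher in FLASH (-0.117 to 2.54). FLASH stood 0.926 points below CONV, with an interval of -2.27 to 0.420. With the immature T cells left out of the denominator the restricted members were 6.17%, 6.53% and 5.51% of cells, and no interval of a difference between them excluded 0. For all members these shares were 7.54%, 6.74% and 5.60%, so that FLASH stood 1.95 points below the control, a difference of -1.95 with an interval of -3.82 to -0.226. The direction of FLASH against the control thus turned with the denominator in these 2 sets. In restricted members without Ccr9 or Cd24a it did not, with FLASH 1.86 points above the control (0.600 to 3.08) over kept cells and 0.397 points above it (-1.22 to 1.87) without the immature T cells. With each cell thinned to 1000 UMIs, all members were 4.80%, 5.09% and 4.64% of kept cells.

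Against other T cells, restricted members were 40.7% of CD3 cells outside the immature group in the control (33.4 to 48.3%), 50.8% in CONV (45.1 to 56.6%) and 43.7% in FLASH (37.8 to 49.7%). CONV stood 10.2 percentage points above the control (0.896 to 19.1), and FLASH 7.16 points below CONV (-15.1 to 0.913). For all members the shares were 35.9%, 41.6% and 40.1%, and the difference of CONV from the control was 5.71 points with an interval of -2.14 to 13.3. CD4 T cells by the mirrored rule numbered 22, 16 and 17, so that 4 CD8 cells were counted per CD4 cell in the control (2.48 to 6.71), 9.94 in CONV (5.93 to 17.8) and 7.41 in FLASH (4.45 to 13.1). In restricted members these ratios were 3.43, 9.63 and 7.29. Cd4 RNA is sparse in such libraries, so the low CD4 counts are those of cells with a captured Cd4 UMI.

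**Figure D2:**
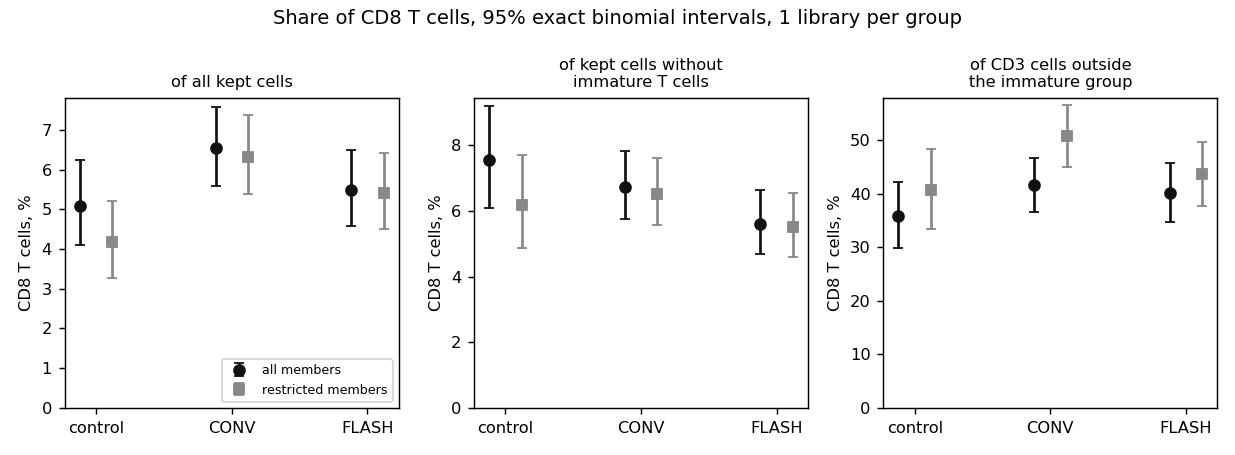
Points give the percentage of CD8 T cells in each library with 95% exact binomial intervals, for all members (circles) and restricted members (squares), over 3 denominators. Removing immature T cells from the denominator brings the restricted control share from 4.17% to 6.17%, beside 6.53% in CONV and 5.51% in FLASH.

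Gene levels in CPM were computed from UMIs summed over the members of a library, and a gene was counted as higher or lower where it held at least 30 UMIs over both libraries and its ratio passed 1.5-fold. Ratios between libraries carry exact binomial intervals. Of 1595 genes measured in restricted members for CONV against control, 133 were higher (8.34%) and 203 lower (12.7%). With levels scaled without ribosomal and mitochondrial UMIs this split was 165 higher and 150 lower. FLASH against control gave 101 higher (7.66%) and 127 lower (9.63%) of 1319 genes. FLASH against CONV gave 150 higher (9.32%) and 93 lower (5.78%) of 1610 genes, and 104 higher and 117 lower with the other scaling. Every pair of these comparisons shares a library, so their counts are not independent. Values of genes and lists from here on are those of restricted members unless all members are named. List counts are to be read beside the shares over all genes of the same set and comparison, given here and in the next paragraph.

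In all members more genes passed the limit against the control, and the split depended on the scaling. CONV against control gave 335 higher (15.3%) and 411 lower (18.8%) of 2191 genes, and FLASH against control 232 higher (12.2%) and 364 lower (19.1%) of 1901. Leaving ribosomal and mitochondrial UMIs out of the scaling moved the median log2 ratio of all genes for CONV against control from -0.02 to 0.38, and turned the split to 827 higher and 215 lower. In restricted members the same change moved that median from -0.08 to 0.00. For FLASH against control the median in all members moved from -0.03 to 0.24, with 514 higher and 240 lower genes. Leaving out the UMIs of 7 airway and surfactant genes in place of those moved the medians to -0.20 and -0.15, with 187 higher and 569 lower genes in CONV and 150 higher and 446 lower in FLASH. The mean over cells gave 177 higher and 459 lower genes in CONV and 133 higher and 403 lower in FLASH. The 10 genes chosen as lower in CONV and the 10 chosen as lower in FLASH against the control in all members, Avp, Ubd and Ccl25 among them, were all under the limit of 30 UMIs in restricted members. FLASH against CONV gave 129 higher (7.57%) and 142 lower (8.34%) of 1703 genes in all members, and 74 higher and 206 lower when scaled without ribosomal and mitochondrial UMIs, with the median moving from -0.04 to -0.18.

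Most naive genes stood above the control in all members of CONV, and few passed the limit in restricted members. In all members, 15 of 20 measured genes of naive state and lymph node homing were higher in CONV than in the control, with a median log2 ratio of 0.78 beside -0.02 over all genes. In restricted members, 1 of 18 was higher and none lower, with a median of 0.19 beside -0.08 over all genes. The 1 higher gene was Il6ra, a receptor subunit that naive T cells express, on 9 control and 21 CONV UMIs, a ratio of 1.54 (0.678 to 3.83). For FLASH against control, 8 of 16 genes were higher in all members, and 1 higher and 1 lower of 16 in restricted members. Tcf7, a transcription factor of naive and memory T cells, was the higher one, with 242, 301 and 366 CPM in the control, CONV and FLASH and a ratio of 1.51 (1.04 to 2.21), and Actn1, an actin crosslinker, was the lower one at 0.622 (0.352 to 1.08).

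Restricted members carried most naive genes at like levels in the 3 libraries. Klf2, the transcription factor that drives S1pr1, stood at 1613 CPM for control, 1711 for CONV and 1661 for FLASH. Il7r, the receptor chain for the survival cytokine IL-7, stood at 361, 429 and 419, with overlapping intervals. Dapl1, a gene known from naive T cells, stood at 416, 550 and 424. Lef1, a partner of Tcf7 in naive cells, was highest in the control at 510 CPM, against 350 in CONV and 351 in FLASH. Its ratio to the control was 0.687 in CONV (0.519 to 0.910) and 0.690 in FLASH (0.504 to 0.940), just inside the 1.5-fold limit. The other CD3 cells, restricted in the same way, gave Lef1 ratios of 0.678 and 0.697.

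Ccr7, the chemokine receptor that guides T cells into lymph nodes, was lowest in FLASH. It stood at 767 CPM in the control (651 to 897), 939 in CONV (834 to 1054) and 607 in FLASH (505 to 722). The FLASH interval did not overlap that of CONV and did overlap that of the control. FLASH stood at 0.646 of CONV (0.520 to 0.799), and at 0.625 in all members. In B cells, which also express Ccr7, FLASH stood at 0.840 of CONV, and in the other CD3 cells at 0.930. Of the naive list, 2 of 19 genes were lower in FLASH than in CONV (Ccr7 and Actn1) and none higher, with a median of -0.04 beside 0.03 over all genes. Over all genes 5.78% were lower and 9.32% higher.

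Bcl2, which protects lymphocytes from apoptosis, was higher in both irradiated libraries than in the control. Restricted members held 112 control, 305 CONV and 200 FLASH UMIs of Bcl2, or 554 CPM (456 to 667), 998 (889 to 1117) and 963 (834 to 1106). Neither irradiated interval overlapped that of the control, and the irradiated pair overlapped each other. The ratio to the control was 1.80 in CONV (1.45 to 2.26) and 1.74 in FLASH (1.37 to 2.21), and FLASH stood at 0.965 of CONV (0.803 to 1.16). The highest cell held 7, 8 and 7 of these UMIs.

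The share of restricted members with a Bcl2 UMI was 61.1% for control, 78.6% for CONV and 71.8% for FLASH. At 1000 UMIs per cell it was 31.9% (21.4 to 44.0%), 57.1% (48.9 to 65.1%) and 60.5% (51.3 to 69.1%). Epithelial cells, which should hold little Bcl2, had a UMI in 12.4%, 10.3% and 3.62% of cells at median depths of 7382, 5126 and 4164 UMIs. They include the epithelial cells that were also members. In all members the Bcl2 ratios were 2.88 for CONV and 2.63 for FLASH against the control. Over the 16 settings run for all members and for subsets of them, the CONV ratio lay between 1.76 and 3.81 and the FLASH ratio between 1.63 and 3.17. Settings that changed only the UMI limit per gene could not move these ratios.

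The other CD3 cells showed Bcl2 in the same direction, with ratios of 1.63 (1.33 to 2.00) in CONV and 1.47 (1.19 to 1.83) in FLASH. In B cells the ratios to the control were 0.637 (0.433 to 0.924) and 0.938 (0.655 to 1.33). Of the survival and BCL2 family list, 2 of 4 measured genes were higher in CONV, and 2 of 3 in FLASH, against the control, both times Bcl2 and Bax. In all members 1 of 5 was higher and 1 lower in CONV, and 1 higher and 2 lower of 5 in FLASH, with Bcl2 the higher one each time. Bax, a pro-apoptotic p53 target, stood at 114, 187 and 212 CPM in the control, CONV and FLASH, with ratios of 1.64 (0.994 to 2.79) and 1.86 (1.10 to 3.23). Mcl1, another anti-apoptotic member, stood at 89.0, 111 and 125, with ratios of 1.25 (0.686 to 2.35) and 1.41 (0.742 to 2.72). Bcl2l11, which encodes the pro-apoptotic BIM, held 11, 16 and 10 UMIs and was under the limit of 30.

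Targets of p53, the factor that responds to DNA damage, were mostly too sparse in CD8 T cells to be read. Of 33 listed genes, 3 were measured for CONV against control in restricted members, and 2 of them, Bax and Rps27l, were higher. In all members none of 5 was higher and 2 were lower, Cdkn1a and Dcxr, with a median of -0.53. Rps27l had a ratio of 1.54 (1.01 to 2.40) in CONV and 1.27 (0.787 to 2.06) in FLASH. Cdkn1a, the cell cycle inhibitor p21, held 2, 11 and 11 UMIs in restricted members of the control, CONV and FLASH, or 9.89 CPM (1.20 to 35.7), 36.0 (17.97 to 64.4) and 52.95 (26.4 to 94.8). In all members Cdkn1a held 27, 14 and 14 UMIs, with a CONV ratio of 0.566 (0.274 to 1.12), so that its direction differed between the 2 sets. Phlda3 held 0, 8 and 0 UMIs in restricted members and 17, 9 and 1 in all members. In B cells Cdkn1a stood 6.91-fold higher in CONV (4.74 to 10.3) and 6.45-fold higher in FLASH (4.38 to 9.74) than in the control.

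**Figure D3:**
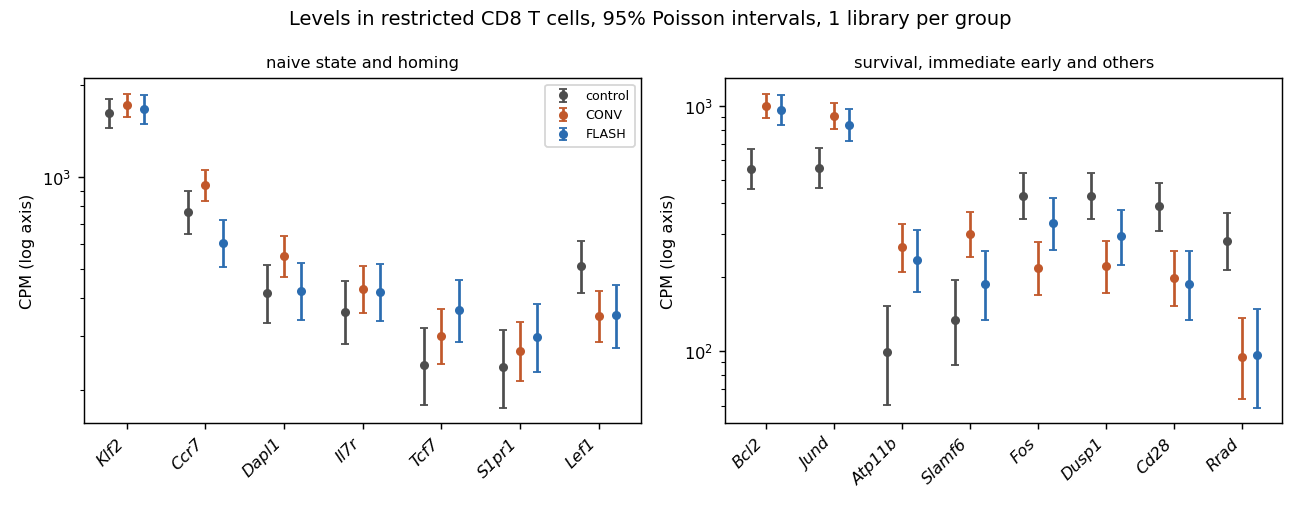
Levels of 15 genes in restricted members, in CPM on a log axis with 95% Poisson intervals, by library. Naive genes on the left mostly overlap between libraries, Ccr7 is lowest in FLASH at 607, and on the right Bcl2 stands at 554 in the control against 998 and 963 in the irradiated libraries.

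Among genes chosen by the fixed rule as higher in CONV than in the control, Atp11b had 20, 81 and 49 UMIs in restricted members of the control, CONV and FLASH. Atp11b encodes a phospholipid flippase, and its ratios to the control were 2.68 in CONV (1.63 to 4.62) and 2.38 in FLASH (1.39 to 4.24). In the other CD3 cells they were 2.94 and 3.69, and in B cells 1.10 in CONV. Slamf6, a costimulatory receptor of the SLAM family, stood at 134, 301 and 188 CPM in the control, CONV and FLASH. Its ratio was 2.25 in CONV against control (1.45 to 3.602), and FLASH stood at 0.624 of CONV (0.417 to 0.916).

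Further higher genes in CONV were Aes, a transcriptional corepressor, at 2.44 (1.51 to 4.10), Arl4c, a small GTPase, at 2.39 (1.46 to 4.09), Drap1, a transcription repressor, at 4.23 (1.64 to 13.9) and Kpna4, a nuclear importin, at 3.84 (1.47 to 12.7). Drap1 and Kpna4 each rested on 5 control UMIs. Gnb2l1, the ribosomal scaffold RACK1, stood at 1.84 (1.57 to 2.17) and Jund, an AP-1 subunit, at 1.63 (1.30 to 2.04). Rps12-ps3 stood at 1.57 (1.32 to 1.88), but it is a processed pseudogene whose reads cannot be told from those of its parent gene. Of the 10 genes chosen in all members, 7 were chosen again in restricted members: Arl4c, Atp11b, Bcl2, Gnb2l1, Kpna4, Rps12-ps3 and Slamf6.

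The lower genes in CONV included Rrad, a small GTPase, with 57, 29 and 20 UMIs in the control, CONV and FLASH and 14 of the control UMIs in 1 cell. Its ratios to the control were 0.337 (0.208 to 0.535) in CONV and 0.341 (0.194 to 0.577) in FLASH, while the other CD3 cells gave 1.59 and 2.72. Actb, cytoplasmic actin, stood at 6218, 3652 and 4010 CPM, with ratios of 0.587 (0.541 to 0.637) and 0.645 (0.590 to 0.704). Of its 1257 control UMIs, 167 lay in 1 cell. In the other CD3 cells Actb went the other way, at 1.36 and 1.41. H3f3b, a replication-independent histone H3, stood at 0.584 (0.512 to 0.665) in CONV, and at 0.435 in B cells and 0.477 in the other CD3 cells. Gpr171, a receptor of lymphocytes, stood at 0.260 (0.117 to 0.538).

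Hmgb2 and Tubb5, which dividing cells express strongly, were also lower in CONV, at 0.495 (0.375 to 0.651) and 0.461 (0.363 to 0.583). In the control 35 of 127 Hmgb2 UMIs and 48 of 178 Tubb5 UMIs lay in 1 cell each, and in CONV 42 of 95 Hmgb2 UMIs lay in 1 cell. Dividing cells were rare: by at least 3 UMIs of 9 mitotic genes they numbered 1 of 72 control, 1 of 154 CONV and 3 of 124 FLASH restricted members. The 1 CONV cell held 49 of the 51 UMIs of those genes. Of the list of S and G2/M phase genes, 3 of 4 were lower in CONV than in the control, namely Hmgb2, Tubb5 and Stmn1, and 2 of 3 were higher in FLASH than in CONV (Hmgb2 and Stmn1). Over all genes 12.7% were lower in the first comparison and 9.32% higher in the second. The Stmn1 UMIs lay in 10 control, 6 CONV and 8 FLASH cells, with 26 of 38, 27 of 32 and 18 of 43 in the highest cell. Without the cells that held Ccr9 or Cd24a, none of 3 measured genes of this list passed the limit as lower in CONV than in the control. Hmgb2 and Tubb5 still stood below the control there, at 0.681 (0.4945 to 0.939) and 0.704 (0.531 to 0.934), inside the limit. Stmn1 was higher at 1.86.

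Immediate early genes, which respond within minutes to stimulation and to dissociation of tissue, were split. For CONV against control 1 of 16 was higher (Jund) and 4 lower (Fos, Dusp1, Zfp36 and Ppp1r15a), with a median of -0.23. Over all genes 8.34% were higher and 12.7% lower there, with a median of -0.08. In all members 3 of 21 were higher and 9 lower, beside 15.3% and 18.8% over all genes. Fos, an AP-1 subunit, stood at 430, 219 and 332 CPM in the control, CONV and FLASH, and its CONV ratio was 0.509 (0.365 to 0.709). Dusp1, a phosphatase of MAP kinases, stood at 430, 223 and 294. In B cells the Fos ratio for CONV was 1.25 (1.07 to 1.45). For FLASH against control 1 of 15 was lower (Zfp36), beside 9.63% over all genes. For FLASH against CONV 1 of 15 was higher (Fos), beside 9.32%.

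Genes of the T cell receptor complex and its proximal signalling gave opposite counts in the 2 sets of members. In restricted members none of 13 was higher in CONV than in the control and 2 were lower, Cd6 and Cd28, a share near the 12.7% lower over all genes, with a median of -0.33 beside -0.08 over all genes. For FLASH against control none of 12 was higher and 2 were lower, Cd28 and Skap1, with a median of -0.22 beside -0.04. In all members 6 of 15 were higher and none lower in CONV, and 3 of 12 higher and none lower in FLASH. The list holds Cd3d, Cd3e and Cd3g, which the rule used. Cd28, the costimulatory receptor for CD80 and CD86, held 79, 61 and 39 UMIs in the control, CONV and FLASH, or 391 (309 to 487), 200 (153 to 256) and 188 CPM (134 to 257). Both irradiated intervals lay below that of the control, with ratios of 0.511 (0.360 to 0.722) and 0.480 (0.319 to 0.714). Cd28 is also among the thymocyte markers, and without the cells that held Ccr9 or Cd24a the ratios were 0.625 and 0.601. In all members the Cd28 ratio for CONV was 0.839, and 1.11 when scaled without ribosomal and mitochondrial UMIs, so that its direction turned with the scaling there. Lat, the adaptor that links the receptor to downstream kinases, stood at 688, 488 and 486 CPM, and Lck, the kinase bound to CD8, at 450, 347 and 390, inside the 1.5-fold limit. For FLASH against CONV none of 13 genes of this list passed the limit in either direction.

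In restricted members, genes of MHC class I presentation gave 2 of 14 lower in CONV (H2-Q4 and H2-T23) and 1 of 13 lower in FLASH (H2-T23) than in the control, and none higher, shares near the 12.7% and 9.63% lower over all genes. In all members 2 of 14 were higher in CONV and 1 of 13 in FLASH, and none lower. H2-T23, the non-classical molecule Qa-1b, stood at 228, 141 and 130 CPM in the control, CONV and FLASH. H2-D1, a classical class I heavy chain, stood at 2666, 1859 and 2200, with a CONV ratio of 0.697 (0.619 to 0.786). The H2 genes are near-identical to each other and the split of reads among them is uncertain. B2m, the shared light chain, stood at 3774, 3128 and 3278.

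Of interferon-stimulated genes, 3 of 13 were higher and 2 lower in CONV than in the control, beside 8.34% higher and 12.7% lower over all genes, with a median of -0.04. FLASH against control gave 2 higher and 3 lower of 12. In all members 3 of 13 were higher and none lower in CONV, and the median was 0.50. The higher genes in restricted members were Ifi203, Ifitm2 and Ifitm3. Ifitm3, a membrane protein that blocks viral entry, held 2 UMIs in 1 control cell, 29 in 27 CONV cells and 30 in 17 FLASH cells, with 11 of the FLASH UMIs in 1 cell. Lung epithelial, endothelial and myeloid cells express Ifitm3 strongly, and in B cells it stood 2.08-fold higher in CONV (1.66 to 2.62) and 1.69-fold in FLASH. The part of such cells in the CD8 T cell value was not tested. Ifi27l2a was among the lower genes in CONV, at 0.632 (0.442 to 0.904).

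The remaining lists held few genes past the limit in restricted members. Heat shock chaperones had none of 7 past it in any comparison, and inhibitory receptors and exhaustion had no gene with 30 UMIs. Pdcd1, which encodes PD-1, held 0, 2 and 1 UMIs and Lag3 and Tigit none. Among receptors for cytokines 1 of 14 was higher and 2 were lower for CONV against control, and among receptors for chemokines and lipids none of 10 was higher and 1 was lower, S1pr4. Over all genes 8.34% were higher and 12.7% lower in that comparison. In all members 6 of 15 and 8 of 10 genes of these lists were higher in CONV than in the control and none lower. There 15.3% of all genes were higher and 18.8% lower. Tissue residency genes had 3 measured members for CONV against control, with Runx3 higher at 2.07 (0.904 to 5.30) and Rgs2 lower at 0.581 (0.361 to 0.932), and for FLASH 1 of 2 was higher, Cd69. Cd69, a retention receptor of resident and activated T cells, stood at 109, 151 and 168 CPM in the control, CONV and FLASH, and Itgae, the CD103 chain of resident cells, held 2, 10 and 7 UMIs. Glucocorticoid and circadian genes had none of 2 past the limit in each comparison, and genes of the CD4 lineage none of 1. Of the cytoskeleton list, 1 of 25 was higher and 2 were lower in CONV against control, with Vim higher and Actb and Tuba4a lower.

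The memory and cytotoxic effector list held more genes higher in FLASH than in CONV. Of 17 measured genes, 9 were higher in FLASH and none lower, against 9.32% higher and 5.78% lower over all genes, and the median log2 ratio was 0.61 beside 0.03. The 9 were Ccl5, Gzma, Ctla2a, S100a4, S100a6, Lgals1, Anxa2, Ahnak and Itgb1. In all members 8 of 17 were higher, with a median of 0.49. Against the control, FLASH had 7 of 14 higher and none lower with a median of 0.54, while CONV had 1 higher (Lgals1) and 1 lower (Ly6c2) of 13 with a median of 0.10. In all members FLASH had 11 higher and 4 lower of 19 than the control, and CONV 4 higher and 5 lower of 19. Without the cells that held Ccr9 or Cd24a, CONV had 1 higher and 3 lower of 13 than the control, where 9.7% and 10.4% of all genes passed the limit. In the same cells FLASH had 4 of 13 higher than the control (10.4% higher and 6.94% lower over all genes) and 9 of 16 higher than CONV (9.64% and 5.84%). The NK cell markers moved with this list, at 44.5, 141 and 361 CPM in the control, CONV and FLASH, where Gzma and Prf1 are in both lists. Their 10 genes held 9, 43 and 75 UMIs, with Klrb1c at 0 in the control and FLASH and Klra9 and Klri2 at 0 in each library. Their part in the effector counts was not tested.

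**Figure D4:**
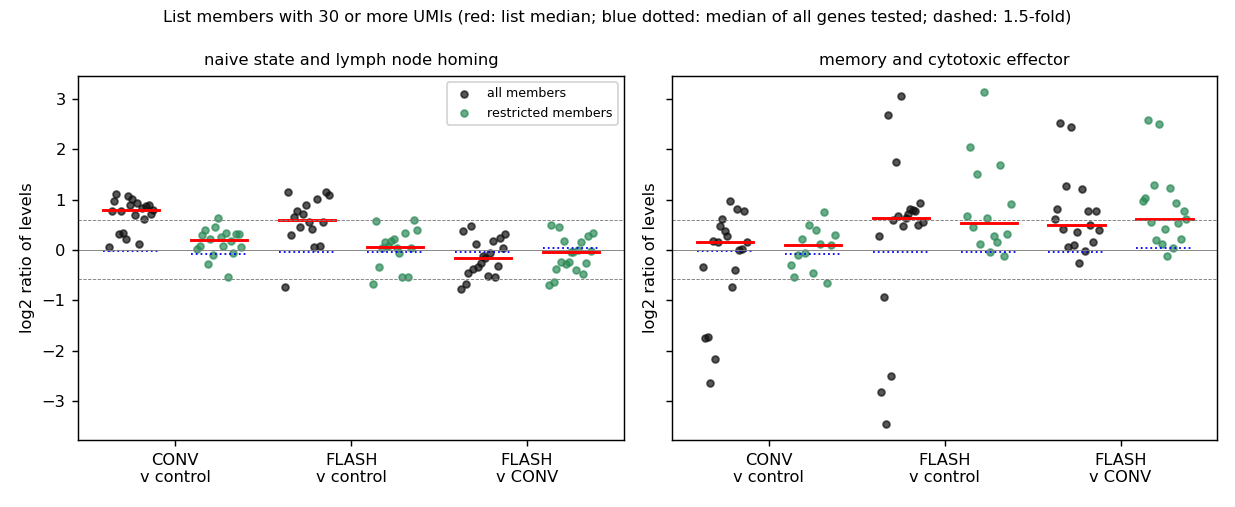
Each point is 1 gene with at least 30 UMIs, plotted as the log2 ratio of its levels in 3 comparisons, for all members (black) and restricted members (green). Red bars are list medians, which are 0.78 in all members and 0.19 in restricted members for naive genes in CONV against control and stand at 0.49 and 0.61 for effector genes in FLASH against CONV.

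B cells, taken as cells with Cd79a and no UMI of the CD3 genes, Ncr1 or Csf1r, also had effector genes higher in FLASH. In them 11 of 17 genes of the effector list were higher in FLASH than in the control and 6 of 16 higher in FLASH than in CONV, with none lower in either. Over all B cell genes 10.7% were higher and 17.2% lower in the first comparison, and 7.94% higher and 13.3% lower in the second. In the other CD3 cells none of 22 was higher in FLASH than in CONV and 6 were lower, beside 6.07% higher and 8.82% lower over all their genes. The part of RNA from other cells in the list counts of CD8 T cells was not tested.

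Ccl5, the chemokine RANTES that memory CD8 T cells store as RNA, had the highest ratio of the list in FLASH against CONV. Restricted members held 206 control, 214 CONV and 869 FLASH UMIs of Ccl5, or 1019 CPM (885 to 1168), 700 (610 to 801) and 4183 (3910 to 4471). FLASH stood 5.97-fold above CONV (5.14 to 6.97) and 4.11-fold above the control (3.52 to 4.80), and CONV at 0.687 of the control (0.565 to 0.836). In all members the ratio of FLASH to CONV was 5.73, and over the alternatives run it lay between 5.22 and 10.45, the highest with at least 2 UMIs of CD3 and of Cd8 genes required. These intervals count UMIs, most of which lay in few cells.

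The number of cells behind Ccl5 was small. At least 1 Ccl5 UMI was found in 26 of 72 control cells (36.1%, 25.1 to 48.3%), 26 of 154 CONV cells (16.9%, 11.3 to 23.7%) and 35 of 124 FLASH cells (28.2%, 20.5 to 37.0%). B cells also reached this threshold: 6.85% of control, 10.5% of CONV and 13.7% of FLASH B cells held a Ccl5 UMI, at median depths of 1985, 2059 and 1450 UMIs. The CONV interval of CD8 T cells overlapped that of its B cells (6.10 to 16.4%). At least 5 UMIs were found in 8 of 72 control cells (11.1%, 4.92 to 20.7%), 10 of 154 CONV cells (6.49%, 3.16 to 11.6%) and 21 of 124 FLASH cells (16.9%, 10.8 to 24.7%). B cells reached 5 UMIs in 1 of 219, 0 of 153 (interval up to 2.38%) and 2 of 183 cells. FLASH exceeded CONV in this share by 10.4 percentage points (Newcombe interval 2.92 to 18.6), and the intervals against the control, -14.4 to 2.75 for CONV and -5.03 to 15.1 for FLASH, included 0.

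The order of the shares with 1 UMI was the same after thinning the same restricted members to 1000 UMIs, at 25% in the control (15.5 to 36.6%), 14.3% in CONV (9.17 to 20.8%) and 23.4% in FLASH (16.3 to 31.8%), 3 intervals that overlapped. In all members the shares without thinning were 31.8%, 17.0% and 27.8%. The same members thinned to 1000 UMIs gave 18.2% (10.8 to 27.8%), 13.8% (8.88 to 20.2%) and 23.8% (16.7 to 32.2%). FLASH then stood above the control, with overlapping intervals, so that this order depended on the set of members. With every kept cell thinned and the members chosen anew by the rule, the shares were 16.9%, 12.1% and 26.4%, with FLASH again above the control. The shares with at least 5 UMIs were then 6.02%, 4.84% and 17.9%, with FLASH 11.9 points above the control (2.35 to 20.95). FLASH was above CONV in each of these. In FLASH 12 cells held 20 or more UMIs, against 4 in the control and 3 in CONV, and the highest cells held 115, 58 and 49. The 5 highest cells held 80.6%, 70.6% and 54.3% of all Ccl5 UMIs of restricted members in the control, CONV and FLASH.

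Outside the CD8 T cells Ccl5 was also unequal. Its level in B cells was 63.9 CPM for control, 46.4 for CONV and 524 for FLASH, and 1 cell held 119 of the 203 FLASH UMIs. In the other CD3 cells it stood at 1176, 1688 and 1080, so that FLASH was at 0.640 of CONV there (0.549 to 0.745). NK cells held at least 5 Ccl5 UMIs in 37 of 37, 19 of 21 and 29 of 32 cells.

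**Figure D5:**
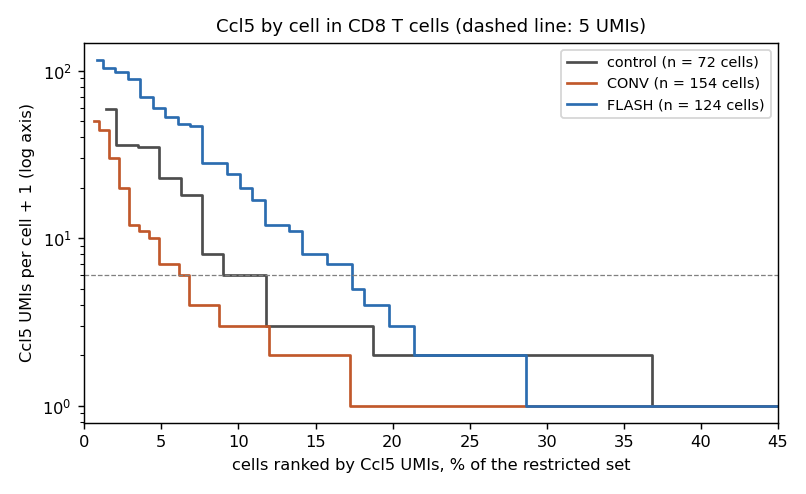
Restricted members of each library ranked by Ccl5 UMIs, with the rank as a percentage of cells and Ccl5 UMIs plus 1 on a log axis. FLASH lies above CONV at the ranks where cells hold a UMI, and crosses 5 UMIs at 16.9% of cells against 6.49% in CONV.

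Other effector genes higher in FLASH held fewer UMIs. Gzma, a secreted serine protease of cytotoxic cells, held 3, 7 and 27 UMIs in the control, CONV and FLASH, the last in 9 cells with 11 in 1 of them. FLASH stood 5.67-fold above CONV (2.41 to 15.4), and in B cells 7.80-fold (3.67 to 19.0). Lgals1, a galectin of activated T cells, stood at 153, 259 and 491 CPM. FLASH was 3.20-fold above the control (2.12 to 4.95) and 1.90-fold above CONV (1.40 to 2.58), while B cells gave 0.892 for FLASH against CONV. In all members the Lgals1 ratios of FLASH were 1.71 to the control and 1.72 to CONV, and after thinning the ratio to the control was 0.964, the opposite direction.

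Vim, the intermediate filament of motile cells, stood at 139, 252 and 385 CPM, and at 1.53 in FLASH against CONV (1.10 to 2.12) beside 1.27 in B cells. S100a6, a calcium-binding protein of memory cells, had a ratio of 1.53 (1.02 to 2.28) for FLASH against CONV beside 1.69 in B cells. Ctla2a, a protease inhibitor of activated lymphocytes, stood at 2.43 (1.41 to 4.27) beside 1.31 in B cells. Itgb1, an integrin of memory cells, stood at 2.35 (1.19 to 4.83) beside 0.671, and Adgre5, the adhesion receptor CD97, at 2.17 (1.24 to 3.87) beside 0.924.

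Other genes of the memory and cytotoxic effector list stood closer in FLASH and CONV, or were sparse. Nkg7, a granule protein, stood at 603, 645 and 751 CPM in the control, CONV and FLASH, and Klrd1, the CD94 receptor chain, at 203, 219 and 226, both with overlapping intervals. Il2rb, the receptor chain shared by IL-2 and IL-15, stood at 94.0, 68.7 and 91.5. Ly6c2, a surface protein of memory CD8 T cells, stood at 440, 278 and 404, with 0.632 (0.464 to 0.860) for CONV against control. Gzmb held 2, 3 and 7 UMIs, Prf1 0, 3 and 0, and Ifng 2, 0 and 1, too few to compare.

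Of the cytoskeleton list, 2 of 23 genes were higher in FLASH than in CONV and none lower, beside 9.32% higher and 5.78% lower over all genes. They were Vim and Actg1, cytoplasmic gamma-actin, the latter at 1.598 (1.37 to 1.86). Outside the lists, FLASH exceeded CONV in H2afz, a histone variant, at 1.81 (1.43 to 2.29) with 30 of 135 CONV and 30 of 166 FLASH UMIs in 1 cell each. It also did in Ube2l3, a ubiquitin-conjugating enzyme, at 2.61 (1.51 to 4.62) and Psmd4, a proteasome subunit, at 2.60 (1.39 to 5.02). Il1b, an inflammatory cytokine of myeloid cells, held 3, 6 and 27 UMIs, with 17 of the FLASH UMIs in 1 cell. Lower in FLASH were Banf1, a chromatin protein, at 0.448 (0.227 to 0.829), Emb, a cell adhesion protein, at 0.608 (0.416 to 0.876), Tprgl at 0.524 (0.302 to 0.875), Ywhah, a 14-3-3 adaptor, at 0.539 (0.315 to 0.892) and Sqstm1, the autophagy receptor p62, at 0.294 (0.0880 to 0.783). Tprgl, Emb and Ywhah gave 1.08, 1.15 and 0.726 in the other CD3 cells.

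Against the control, FLASH was also higher in Ddx21, a nucleolar helicase, at 3.11 (1.49 to 7.10) and Tagln2, an actin-binding protein, at 2.03 (1.43 to 2.91), the latter at 1.47 in B cells. It was lower in Erdr1 at 0.236 (0.0941 to 0.521), Rnaset2a, a ribonuclease, at 0.433 (0.267 to 0.685) and Cnbp, a nucleic acid binding protein, at 0.526 (0.370 to 0.743).

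Within the CD8 T cells, cells with Ccl5 were compared with those without it in each library. A set made from 1 gene is a range and not a cell type, and the division used values of the same cells, so its ratios are descriptions. Restricted members with Ccl5 numbered 26, 26 and 35 and those without it 46, 128 and 89 in the control, CONV and FLASH, with like median depths (2985 and 2662 UMIs in the control, 2020 and 1837 in CONV, 1597 and 1590 in FLASH). Of the effector list 14 of 17 genes were higher in cells with Ccl5 and none lower, with a median log2 ratio of 1.12, and of the naive list none of 20 was higher and 7 were lower, with a median of -0.45. Over all 2251 genes 257 were higher (11.4%) and 180 lower (8%), with a median of 0.06. The counts and the ratios without a named library sum the UMIs of the 3 libraries, which differ in their share of cells with Ccl5 and in the levels of some genes.

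Ly6c2, Ctla2a, S100a6, Il2rb and Lgals1 of the effector list were past the limit with Ccl5 in each of the 3 libraries. In all members Lgals1 was inside the limit in the control, at 1.09, and the others stayed past it. Ly6c2 stood at 881 CPM with Ccl5 and 167 without it, a ratio of 5.28 (4.06 to 6.92), with 5.18 for control, 3.30 for CONV and 9.82 for FLASH. Ctla2a followed at 6.35 (3.79 to 10.98), S100a6 at 4.11 (2.87 to 5.92), Il2rb at 2.97 (1.73 to 5.15) and Lgals1 at 2.40 (1.81 to 3.17). Itgb1 stood at 3.39 (1.78 to 6.55) over the 3 libraries, but at 1.18 in CONV on 3 and 12 UMIs. Lower with Ccl5 was Rgcc, at 0.368 for control, 0.347 for CONV and 0.433 for FLASH. Ccr7 was at 0.609 (0.488 to 0.755) over the 3 libraries, with 0.879, 0.489 and 0.516 by library, so that the control was inside the limit. Igfbp4, a gene of naive CD8 T cells, was likewise inside it in the control, with 0.761, 0.232 and 0.373, and Jund was inside it in CONV, with 0.632, 0.746 and 0.646. Bcl2 went different ways by library, with 1.66 for control, 1.15 for CONV and 0.833 for FLASH.

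Raising the limit to 5 Ccl5 UMIs, against cells with 0, widened the contrast. It compared 8, 10 and 21 cells in the control, CONV and FLASH with 46, 128 and 89. Of the effector list 15 of 16 genes were then higher, with a median of 1.82, and of the naive list 11 of 20 were lower, with a median of -0.72, beside 17.1% higher and 16.1% lower over all 1868 genes. Ly6c2 stood 9.36-fold higher (7.05 to 12.5), Nkg7 2.79-fold (2.24 to 3.47) and Gzma 36.3-fold (13.8 to 121), on 27 UMIs against 5. Ccr7 stood at 0.378 (0.244 to 0.561), Lef1 at 0.426 (0.229 to 0.731) and Dapl1 at 0.323 (0.170 to 0.561).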

How the data were processed

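Per the submitters' processing notes, Cell Ranger 2.0 and mm10 were used. The deposited values were counts of UMIs per gene and barcode, whole numbers without normalization. A barcode entered with 200 or more genes and no more than 10% of its UMIs mitochondrial, which left 6458 of 6662. The table held 27998 genes. Trac, Trbc1 and Trdc were not among these genes, so they could not be analysed. The members and lists were chosen with earlier results of these data known. Doublets were left in, and removal of the top Scrublet scores (0.8% per 1000 barcodes, scanpy 1.11.5) was an alternative.

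UMIs were summed per library (numpy 2.4.6, scipy 1.17.1, Python 3.11.15), and a gene was called past 1.5-fold with at least 30 UMIs. Shares carry Clopper-Pearson, differences Newcombe, levels Poisson and ratios conditional binomial intervals. The computation was tested on simulated data. Named genes were the 10 highest and 10 lowest per comparison by the interval bound nearest 1, with a level of at least 25% of that in other cells of the library, and up to 6 members of each of 18 lists with the most UMIs. Genes named outside this rule were chosen after their values were seen: Anxa2, Bcl2l11, Cd6, Cdkn1a, Dusp1, Gzma, Gzmb, H2-Q4, H2-T23, Ifi203, Ifng, Il6ra, Actn1, Itgae, Klrd1, Lag3, Pdcd1, Phlda3, Ppp1r15a, Prf1, S1pr4, Skap1, Tigit, Tuba4a and Zfp36. Values of some single genes are not reported here. The restricted members, with and without Ccr9 or Cd24a, the scaling without airway genes, the other weights and scalings of restricted members and the limit of 5 Ccl5 UMIs were alternatives chosen after seeing the data. The other alternatives were thinning, other limits on cells, UMIs and the rule, another scaling and the mean over cells.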

Additional observations from a re-analysis of the deposited data

Results flagged for a closer look

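Ratios of 3 flagged genes between libraries lay on opposite sides of 1 in restricted CD8 T cells and in B cells. They are not the full set. Fos in CONV against control, and Lgals1, Itgb1 and Adgre5 in FLASH against CONV, did so too, with values given above. With 1 library per group, the difference between the cell types was not tested. Bcl2 in CONV against control stood at 1.80 (1.45 to 2.26) in CD8 T cells, on 417 UMIs, and at 0.637 (0.433 to 0.924) in B cells, on 133 UMIs. Slamf6 in CONV against control stood at 2.25 (1.45 to 3.602) in CD8 T cells and at 0.644 (0.362 to 1.11) in B cells. Il1b in FLASH against CONV stood at 6.62 (2.68 to 19.6) in CD8 T cells and at 0.524 (0.338 to 0.798) in B cells, and 17 of the 27 FLASH UMIs of CD8 T cells came from 1 cell.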

How the results depend on the processing

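No paired analysis was possible because each group was 1 library and no test was made. Over the alternatives, 324 ratios of single genes gave 3612 values inside the counting interval of all members, 732 outside it and 26 on the other side of 1, and 46 list medians gave 608 values within 1.5-fold, 48 beyond it and 1 of opposite sign. Of the 3612 values, 324 and 211 came from the limits of 10 and 100 UMIs per gene, which cannot change a ratio. Counts of higher and lower genes follow in that order, first for CONV and next for FLASH, each against control, and last for FLASH against CONV; they were 335 and 411, 232 and 364, and 129 and 142 in all members, and a single value is the one that moved by over 1.5 times. Restricted members gave 133 and 203, 101 and 127, and 93 lower. Without Ccr9 or Cd24a cells as well they gave 132 and 141, 117 and 78, and 86 lower. As a mean over cells they gave 124 and 221, and 100 and 153, and scaled without ribosomal and mitochondrial UMIs 165 and 150, and 109 and 119. In all members that scaling gave 827 and 215, 514 and 240, and 74 higher. The mean over cells gave 177 and 133 higher, and scaling without airway and surfactant UMIs 187 and 150 higher. Leaving out members with Ccr9, Cd24a or Klrb1c gave 140 and 218, 115 and 144, and 89 lower. Requiring 2 UMIs of CD3 and of Cd8 genes gave 164 and 169, 149 and 109, and 71 lower. Thinning to 1000 UMIs gave 68 and 133, 57 and 125, and 53 and 41. A limit of 10 UMIs per gene gave 1091 and 1471, 891 and 1456, and 681 and 857, and one of 100 UMIs gave 109 and 81, 74 and 63, and 12 and 10, since more or fewer genes were tested.

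CD8 T cells as a share of kept cells moved to 3.53%, 4.56% and 2.92% in the control, CONV and FLASH with 2 UMIs required, where they were 28.8% of CD3 cells in FLASH and the CD8 to CD4 ratio was 30.5 in the control and 37.0 in CONV. The control share of kept cells was 3.59% without members with Ccr9, Cd24a or Klrb1c and 3.24% in restricted members without Ccr9 or Cd24a. The CONV share of CD3 cells was 50.8% in restricted members and 50.2% in them without Ccr9 or Cd24a. Thinning gave 5.09% of kept cells in CONV and a control share with Ccl5 of 16.9%.

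The following ratios lay on the other side of 1 from their value in all members. After thinning these were Hspa5 at 1.004, Il2rg at 0.760, Pfn1 at 0.868, Selplg at 0.842 and Thy1 at 0.934 in CONV against control, Lgals1 at 0.964, Pfn1 at 0.988 and Tcf7 at 0.832 in FLASH against control, and Fos at 0.815 in FLASH against CONV, with the chemokine and lipid receptor median at -0.083 for FLASH against control. In CONV against control, 2 required UMIs gave Ifitm3 at 0.896, and Stmn1 stood at 1.26 without members with Ccr9, Cd24a or Klrb1c and at 1.13 without top-scoring doublets. Restricted members gave Ctsw at 0.953 and Selplg at 0.997 in CONV and Hspa5 at 1.001 in FLASH against control. Without Ccr9 or Cd24a they gave Icos at 0.928, Il21r at 0.958, Il2rg at 0.967, Selplg at 0.916 and Stmn1 at 1.86 in CONV, and Dapl1 at 0.878 and Icos at 0.932 in FLASH. As a mean over cells they gave Ctsw at 0.948 in CONV and Dapl1 at 0.978 in FLASH, and scaled without ribosomal and mitochondrial UMIs Hspa5 at 1.04 and 1.01. The cause was not tested. Depth limits single genes, since many listed genes held under 30 UMIs.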
